A study of Mus musculus with 4 samples.

Results

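The epithelium of the choroid plexus was followed in single-cell RNA sequencing of whole mouse brain, as the barcodes that carried its marker genes with no upper limit on their depth. The members were chosen by measured values: a barcode was taken when it had at least 1000 unique molecular identifiers (UMIs, each standing for 1 captured RNA molecule), at most 15.8% mitochondrial UMIs, and at least 15 UMIs summed over 6 genes, *Kl*, *Kcnj13*, *Folr1*, *Clic6*, *Sostdc1* and *Prlr*. The gate took 2551 of 30933 barcodes that passed the first 2 limits, or 8.25%, and 36876 barcodes were listed in all. Whole brains came from 4 male C57BL/6J mice, 1 for each combination of age and diet. Adult mice were 3 to 4 and aged mice 23 to 24 months old when the diets began. Both diets were AIN-93M modified to hold 1% cellulose, with 0% inulin, a fermentable fiber, in the Low fiber and 5% in the High fiber diet. Adult mice were raised in-house and aged mice came from the National Institute on Aging, so that age and origin of the mice cannot be told apart. Brains were dissociated with an Adult Brain Dissociation kit and depleted of red cells, myelin and dead cells before droplet capture. Because each combination had 1 mouse, 2 aged mice were compared with 2 adult mice, and 2 mice on High fiber with 2 on Low fiber. Values are given below in the order adult Low fiber, adult High fiber, aged Low fiber, aged High fiber.

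The choroid plexus is a folded epithelium that hangs into the brain's ventricles over leaky capillaries. Its cells secrete cerebrospinal fluid by pumping ions and water, and they load it with carrier proteins, of which transthyretin, encoded by *Ttr*, is the best known. Sealed by tight junctions, they form the barrier between blood and cerebrospinal fluid and are a place where signals from blood and brain immune cells meet.

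The gated barcodes numbered 898, 587, 433 and 633. They were 11.4% (95% exact binomial interval 10.7 to 12.1), 6.85% (6.33 to 7.41), 6.53% (5.95 to 7.15) and 8.05% (7.46 to 8.67) of the kept barcodes of each mouse, intervals that cover counting error only. The adult Low fiber mouse had the highest share, and the ages overlapped (7.29% ± 1.07 in aged and 9.13% ± 3.22 in adult mice as mean ± SD with n = 2, *p* = 0.667 in an exact two-sided permutation test). With 2 mice against 2, this test cannot give a *p* under 0.333. The gated barcodes held 42.9, 34.6, 27.2 and 30.7% of all UMIs in the 4 libraries, whose totals were 115814810, 111648775, 88248117 and 108131200. Both aged mice were below both adult mice in that share, with a difference of -9.78 percentage points at the smallest *p* the design allows. Among barcodes within an upper limit on the UMI count, given next, the difference was -0.153 points. The median depth was 47342, 57434, 51889 and 41164 UMIs, with 6191.5, 6932, 6381 and 5919 genes detected. Over the 4 mice the median was 49046 UMIs, against 6850.5 in the other kept barcodes. That limit, 3 median absolute deviations above the median, lies at 22005 UMIs, and 1874 gated barcodes (73.5%) were above it. They made up 50.9% of the 3685 kept barcodes above that limit.

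The label was checked against genes the gate did not use. *Ttr*, the carrier of thyroid hormone and retinol-binding protein, took 28.2, 27.7, 28.1 and 27.0% of the UMIs, with a mean of 27.7% ± 0.570 (SD, n = 4) and 0.369% in the other kept barcodes. *Enpp2*, which encodes the lipid-signalling enzyme autotaxin, took 1.71, 1.76, 1.53 and 1.44%, and *1500015O10Rik*, a secreted peptide of the choroid plexus, took 0.441, 0.450, 0.369 and 0.370%. Of the 20 genes with the highest fold over the other kept barcodes, 5 were gate genes and the others included *Kcne2* (78.3-fold), a potassium channel subunit, *Slc16a8* (77.5-fold), a lactate transporter, *Atp2b3* (92.0-fold), a calcium pump, and *Htr2c* (71.5-fold), a serotonin receptor. These folds come from the barcodes that were gated and are a description, with no test. After each barcode was thinned to 5000 UMIs, a *Kl* UMI was found in 91.4, 91.3, 88.4 and 89.5% of gated barcodes and in 9.80, 8.31, 4.10 and 4.58% of the others, and without thinning in 97.996, 96.8, 95.2 and 96.2% and in 15.5, 12.7, 7.70 and 7.81%. *Kl*, which encodes the aging-related hormone receptor klotho, was itself part of the rule.

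Several values bear on purity. Markers of other cell types (endothelium, mural cells, fibroblasts, microglia, macrophages, astrocytes, oligodendrocytes, neurons, T cells and red cells) held over 0.1% of the UMIs in 629 gated barcodes (20.7, 29.8, 21.0 and 28.0% of each mouse's). Scrublet, which scores barcodes against simulated doublets, called 8.57, 3.75, 2.54 and 9.32% of the gated and 3.17% of the other kept barcodes. Its calls were kept in. Just inside the gate, 60 barcodes with 15 to 17 UMIs of the 6 genes had a median *Ttr* share of 0.219% and 73.3% of them were rich in other markers. Just outside, 88 barcodes with 12 to 14 UMIs had a median of 0.220% and 80.7%. Barcodes at the lower edge of the gate thus differed from the bulk of it, whose *Ttr* share is given above. A stricter set of 1917 barcodes (710, 412, 340 and 455), which left out the barcodes rich in other markers and those whose gate genes made up under 0.1% of UMIs, was used beside the whole gate. Of the gated barcode sequences, 22 also occurred among the kept barcodes of another mouse, and 1 was gated in 2 mice.

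UMIs were summed over the gated barcodes of each mouse and tested between mice with edgeR. A gene was called where its Benjamini-Hochberg adjusted *p* was under 0.05 and its fold change over 1.5. Of 16805 genes tested for age, 169 were higher (1.01%) and 42 lower (0.25%) in aged mice. The median log2 fold change of all genes was 0.00. Levels below are normalized counts scaled to 1e6 UMIs (CPM) of a mouse's summed gated barcodes after TMM scaling, and they compare mice for 1 gene, not genes with each other. Levels in other sets of barcodes are CPM without that scaling. Of the 12 largest rises among called genes at a mean of 10 CPM or more, 8 were on a list of interferon response genes, and of the 12 largest falls 6 were on a list of endoplasmic reticulum chaperones.

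Interferons are signals of viral infection that act through receptors and transcription factors on a promoter element, the interferon-stimulated response element. Of 30 interferon response genes tested, 26 were called higher and 0 lower in aged mice, against 1.01% of all genes called higher, and their median log2 fold change was 2.55. In 29 of the 30 both aged mice were above both adult mice, as in 24.5% of all genes. Promoters of 4 genes that rose are shown with their copies of that element. They are windows of 60 bases upstream of the annotated start from RefSeq on GRCm38.p6, 5′ to 3′ on the strand of the gene, with capitals for the GAAA repeats of the element (GAAA, 2 bases of any kind, GAAA) or TTTC where it lies on the reverse strand. The first lies at chr4:156200856-156200915 (minus strand, upstream of *Isg15*), the second at chr19:34640769-34640828 (plus, *Ifit1*), the third at chr19:34583365-34583424 (plus, *Ifit3*) and the fourth at chr8:71537565-71537624 (minus, *Bst2*).
Isg15: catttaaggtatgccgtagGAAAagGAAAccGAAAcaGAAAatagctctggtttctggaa
Ifit1: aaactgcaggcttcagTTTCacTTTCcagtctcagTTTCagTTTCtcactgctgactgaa
Ifit3: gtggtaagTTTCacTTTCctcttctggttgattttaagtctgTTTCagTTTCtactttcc
Bst2: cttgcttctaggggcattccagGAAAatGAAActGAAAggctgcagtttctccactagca

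GAAA followed after 2 bases by another GAAA was found on either strand in the promoter, from 250 bases before to 50 after the start, of 15 of the 22 interferon response genes that had a promoter in the table (68.2%). Over all 27025 genes with a promoter the share was 3.99%. For genes of antigen presentation by MHC class I it was 4 of 14, for choroid plexus markers outside the gate 1 of 16, and for endoplasmic reticulum and heat shock chaperones 0 of 19 and 0 of 12. A match of letters is a description and not a site of binding.

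*Isg15*, a ubiquitin-like protein joined to other proteins in the antiviral response, stood at 2.12, 5.28, 117 and 189 CPM, a rise of 5.42 ± 0.39 on the log2 scale (SE, edgeR adjusted *p* = 0.00168). *Ifit1*, which binds viral RNA, stood at 3.70, 6.20, 171 and 220.3 CPM (log2 fold change 5.33 ± 0.23, edgeR adjusted *p* = 0.000169). Its partner *Ifit3* stood at 6.04, 6.61, 132 and 169 CPM (4.58 ± 0.14, edgeR adjusted *p* = 3.63e-05), although some of its reads may be shared with the near-identical *Ifit3b*. In each of the 3 genes the aged mice were far above the adult mice, and within each age the High fiber mouse was the higher. *Irf7*, the transcription factor that amplifies interferon production, stood at 2.83, 3.91, 58.9 and 81.1 CPM (log2 fold change 4.39). *Usp18*, which removes ISG15 and damps the receptor, stood at 1.46, 1.62, 36.2 and 44.1 CPM (4.71). These regulators rose beside the effectors, with no overlap of the ages. In edgeR's robust fit, which lets the spread of single genes differ more, the folds were the same but the adjusted *p* of *Isg15* was 0.141 and that of *Ifit1* 0.051, while *Ifit3*, *Irf7* and *Usp18* passed.

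Genes of the list with more counts in adult mice were higher too. *Bst2*, tetherin, which holds budding virus at the cell surface, stood at 205, 229, 949 and 1283 CPM (log2 fold change 2.36, edgeR adjusted *p* = 0.00074). *Ifitm3*, which blocks virus entry, stood at 112, 163, 795 and 1104 CPM (2.79), and *Ifi27* at 777, 814, 1426 and 1677 CPM (0.96). The other large rises of the list were *Ifi27l2a* (4.58), *Oasl2* (4.53) and *Rsad2* (4.10), the last encoding viperin. Outside the list, *Ifi44* (4.99) and the apolipoprotein L genes *Apol9a* and *Apol9b* were among the 12 largest rises. *Apol9a* had 3, 2, 556 and 940 UMIs and *Apol9b* 11, 6, 663 and 1245, too few in adult mice to give a fold, and reads may be split between these near-identical genes. The 4 members of the list that were not called were *Irf1* (0.40), *Ifitm2* (-0.14), *Ly6e* (1.13) and *Zbp1* (2.43). In the robust fit the adjusted *p* was 0.0718 for *Ifi27l2a*, 0.0839 for *Oasl2*, 0.115 for *Ifitm3*, 0.139 for *Ifi44* and 0.281 for *Rsad2*. Within the UMI limit *Oasl2* (3.59), *Ifi44* (3.33) and *Rsad2* (1.44) were not called, and *Rsad2* was also not called without the adult Low fiber mouse (edgeR adjusted *p* = 0.0936).

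**Figure D1:**
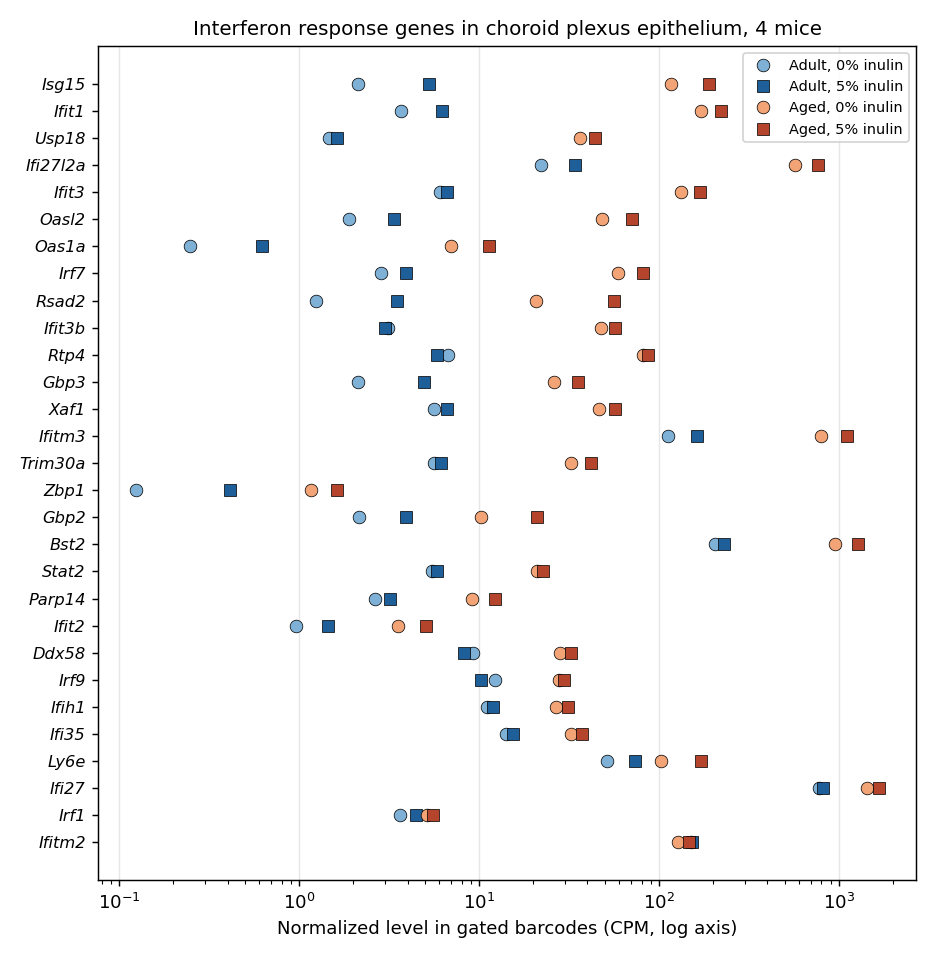
Level of 29 of the 30 interferon response genes tested in the gated barcodes of each mouse, in CPM on a log axis, with 1 point per mouse (circles 0%, squares 5% inulin). Both aged mice lie above both adult mice in 28 of the genes drawn, and the genes are ordered from the largest to the smallest log2 fold change.

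Summed over the list, most barcodes of the aged mice were above the 95th percentile of the adult ones. The summed level of the list had a median over barcodes of 1343, 1479, 3537 and 4433 CPM. Above that mean of the adult 95th percentiles, at 2841 CPM, lay 35, 38, 253 and 462 barcodes, or 3.90, 6.47, 58.4 and 73.0% of each mouse's. In the stricter set the shares were 5.35, 5.10, 61.2 and 76.3%. At 5000 UMIs per barcode, an *Isg15* UMI was seen in 1.01, 1.19, 20.7 and 23.2% of gated barcodes and in 14.1, 18.5, 23.6 and 26.7% of the other kept barcodes. Without thinning the shares were 5.46, 11.4, 39.0 and 44.9% of gated and 18.2, 22.5, 29.2 and 32.4% of the other barcodes, which are shallower. A *Bst2* UMI was seen in 41.8, 47.4, 75.6 and 85.2% of thinned and 82.9, 85.3, 96.1 and 97.3% of unthinned gated barcodes. In the other barcodes it was seen in 36.6, 41.0, 53.6 and 55.1% after thinning. Shares of barcodes with a UMI can include free RNA, and a *Ttr* UMI was seen in 99.8% or more of the thinned other barcodes of each mouse. After thinning, the gated *Isg15* share was below that of the other barcodes in each mouse. Without thinning it was above theirs in both aged mice. It is not read as a share of expressing cells, and the part of free RNA in the list sums was not tested. Thinning left out 6, 1, 3 and 4 gated barcodes with fewer UMIs and 1944, 2408, 1642 and 2075 of the others.

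**Figure D2:**
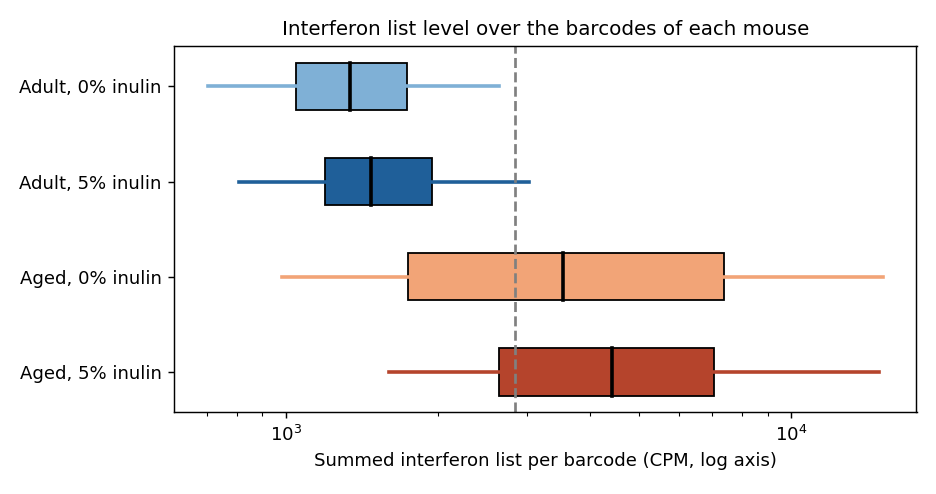
Summed CPM of the interferon response list per gated barcode, on a log axis, for each mouse: the black line is the median, the box spans the quartiles and the thin line the 5th to 95th percentile of its barcodes. The dashed line is the 95th percentile of the adult barcodes, which 58.4 and 73.0% of the barcodes of the aged mice exceed.

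MHC class I presents peptides from inside the cell to CD8 T cells. Of 16 genes of this pathway tested, 11 were higher and 0 lower in aged mice, against 1.01% of all genes called higher, with a median log2 fold change of 1.19. In all 16 both aged mice were above both adult mice, as in 24.5% of all genes. The light chain *B2m* stood at 89.98, 109, 206 and 261 CPM (log2 fold change 1.23, edgeR adjusted *p* = 0.00848). The heavy chain *H2-K1* stood at 85.0, 99.1, 171 and 201 CPM (1.02, edgeR adjusted *p* = 0.00635), and the nonclassical *H2-T23* at 22.8, 25.4, 91.4 and 87.6 CPM (1.89, edgeR adjusted *p* = 9.42e-05). The peptide pump *Tap1* was at 6.65, 7.03, 14.8 and 14.5 CPM (1.10). In each, the ages did not overlap. In edgeR's robust fit the adjusted *p* of *B2m* was 0.068. Within the UMI limit *H2-K1* (1.12, edgeR adjusted *p* = 0.057) and *Tap1* (1.15, edgeR adjusted *p* = 0.36) had similar folds but were not called. Reads of H2 genes can be split among near-identical members. Of 6 genes of MHC class II 0 were called by edgeR or DESeq2 and 1 had an unadjusted *p* under 0.05, and of 13 complement genes 3 were higher (1.01% of all genes), among them *C3*, the central component, at 5.36, 4.94, 19.3 and 10.96 CPM (1.54), which was not called when either adult mouse was left out (edgeR adjusted *p* = 0.143 without the Low fiber one), in the robust fit, with a gate sum of at least 30 or without Scrublet calls.

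Chaperones of the endoplasmic reticulum fold secreted proteins, and many are induced by the unfolded protein response through an element made of CCAAT, 9 bases of any kind and CCACG. Of 22 genes of this list tested, 7 were lower and 0 higher in aged mice, against 0.25% of all genes called lower, with a median log2 fold change of -0.50. *Hspa5*, the master chaperone BiP, stood at 1369, 1018, 660.3 and 607 CPM, and fell by 0.91 ± 0.13 on the log2 scale (SE, edgeR adjusted *p* = 0.0257). *Manf*, a secreted survival factor of stressed cells, stood at 773, 599, 311 and 311 CPM (-1.14, edgeR adjusted *p* = 0.00674). *Sdf2l1*, a partner of BiP, stood at 199, 148, 80.7 and 75.3 CPM (-1.15). In each, the adult Low fiber mouse was the highest, the adult High fiber mouse next, and the aged mice lay close together below both. *Creld2* (-1.005), *Hyou1* (-0.99), *Herpud1* (-0.93) and *Calr* (-0.60) were the other 4 called. *Xbp1*, the transcription factor of this response, stood at 132, 123, 86.2 and 86.2 CPM (-0.57, edgeR adjusted *p* = 0.00674), under the fold limit. Without the aged High fiber mouse *Hspa5*, *Sdf2l1*, *Creld2*, *Hyou1*, *Herpud1* and *Calr* had similar folds but were not called (edgeR adjusted *p* = 0.096 for *Hspa5*), and *Manf* was. The robust fit did not call *Hspa5*, *Sdf2l1*, *Creld2* and *Herpud1*, and with a gate sum of at least 30 *Hspa5*, *Hyou1* and *Herpud1* were not called. Within the UMI limit *Manf* (-0.65), *Hspa5* (-0.57), *Creld2* (-0.53), *Hyou1* (-0.46) and *Herpud1* (-0.44) had smaller changes and were not called.

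The promoters of 3 called genes with the element are shown, since it occurs in few genes. They come from RefSeq on GRCm38.p6, upstream of the start on the strand of the gene, with capitals for the CCAAT and CCACG ends or, where the element lies on the reverse strand, CGTGG and ATTGG. *Hspa5* is at chr2:34772004-34772063 (plus), *Calr* at chr8:84847055-84847114 (minus) and *Creld2* at chr15:88819499-88819558 (plus).
Hspa5: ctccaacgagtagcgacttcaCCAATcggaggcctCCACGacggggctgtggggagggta
Calr: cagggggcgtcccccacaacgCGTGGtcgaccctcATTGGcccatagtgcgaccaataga
Creld2: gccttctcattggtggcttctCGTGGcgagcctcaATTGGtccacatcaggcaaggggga

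The element was found on either strand in 7 of 19 promoters of the list (36.8%), in 0.137% of all promoters, and in 0 of the 22 interferon response promoters. Beside the genes shown, the 7 were *Hsp90b1*, *Pdia6*, *Canx* and *Dnajc3*, which were not called for age. The called *Sdf2l1*, *Manf*, *Hyou1* and *Herpud1* were not among the 7.

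Of 17 heat shock chaperones of the cytosol and mitochondria tested, 4 were lower and 0 higher, against 0.25% of all genes called lower (median log2 fold change -0.37). *Hsph1*, a nucleotide exchange factor of HSP70, stood at 129, 119.6, 72.8 and 68.9 CPM (-0.81, edgeR adjusted *p* = 0.00212), and *Chordc1*, a partner of HSP90, at 89.96, 79.6, 53.3 and 52.1 CPM (-0.69). *Hspb1* (-0.70) and *Bag3* (-0.64) were the others, and they were not called without the adult Low fiber, the adult High fiber or the aged Low fiber mouse, nor after thinning. The robust fit did not call *Hspb1*, nor was *Bag3* called with a gate sum of at least 30. Within the UMI limit *Chordc1* (-0.65) and *Bag3* (-0.81) were not called. Summed over each list, the endoplasmic reticulum chaperones stood at 6790, 5801, 4298 and 4034 CPM and the heat shock proteins at 6563, 6232, 4925 and 4868 CPM. Heat shock genes are known to respond to dissociation, and its part in these values was not tested. Of 19 immediate early genes, which respond to it too, 1 was called, *Junb*, and it was higher, against 1.01% of all genes called higher (21.4, 23.6, 36.5 and 49.1 CPM, 0.93). When either adult mouse was left out, or in the robust fit, *Junb* was not called, and within the UMI limit its log2 fold change was -0.23.

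**Figure D3:**
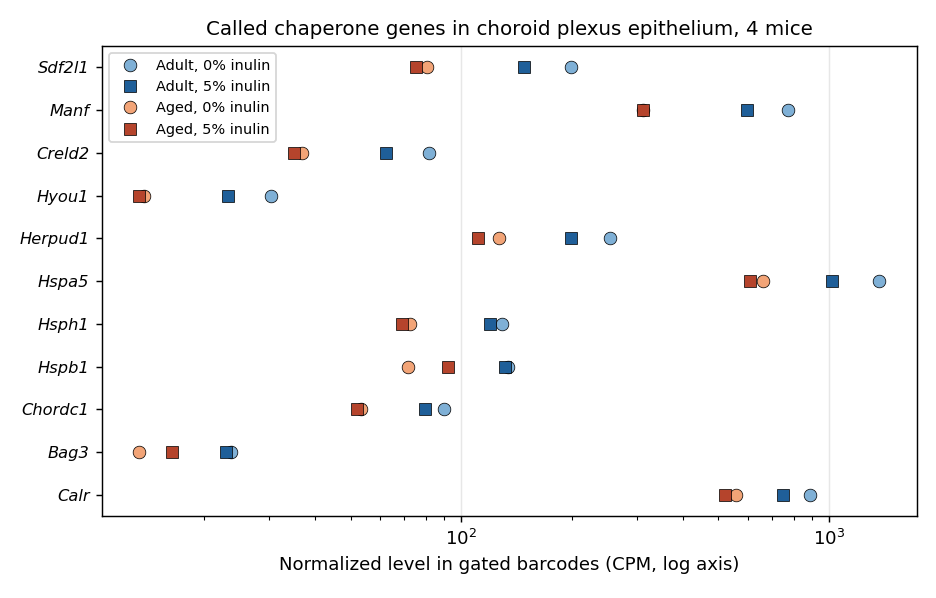
Level of the 11 chaperone genes called lower in aged mice (7 of the endoplasmic reticulum, 4 heat shock) in the gated barcodes of each mouse, in CPM on a log axis, with 1 point per mouse. Both aged mice lie below both adult mice in every gene shown, which the calls fixed.

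Single genes outside these groups also fell. *Ackr4*, a scavenger receptor for chemokines, stood at 15.5, 17.01, 4.03 and 3.76 CPM (log2 fold change -2.06, edgeR adjusted *p* = 0.000344), the largest fall among genes at 10 CPM or more. *Apoc1*, an apolipoprotein, stood at 82.3, 76.3, 30.7 and 38.5 CPM (-1.19), *Pde10a*, a phosphodiesterase, at 40.8, 41.5, 18.2 and 24.4 CPM (-0.94), and the growth factor *Bmp4* at 33.5, 29.6, 18.3 and 20.1 CPM (-0.71). Within the UMI limit *Apoc1* had a log2 fold change of 0.35, *Pde10a* one of -0.37 and *Bmp4* one of -0.26, none of them called as lower. *Pde10a* was also not called when either adult mouse was left out, nor *Bmp4* without the adult Low fiber mouse or after thinning (-0.47). The metallothioneins, which bind zinc and copper, were higher, with *Mt1* at 408, 433, 679 and 679 CPM (0.69) and *Mt2* at 45.9, 50.6, 92.2 and 81.3 CPM (0.85), though neither was called within the UMI limit, with gate genes at 0.1% or more of UMIs or with a gate sum of at least 30, nor *Mt1* in the stricter set (0.39) or after thinning (0.57). Chosen after their values were seen, the sulfotransferase *Sult1c1* stood at 4.64, 4.61, 38.3 and 31.6 CPM (2.91) and the cytochrome oxidase subunit *Cox8b* at 168, 155, 373 and 472 CPM (1.39), with the mice of an age close together.

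Genes of the epithelium's main tasks were not called for age. Among 20 choroid plexus markers outside the gate, 26 ion and water transporters, 20 secreted proteins, 24 nutrient transporters and receptors, 18 junction genes, 24 cilium genes and 14 transcription factors, 0 were called by edgeR in either direction. Both aged mice were below both adult mice in 11 of the choroid plexus markers and 15 of the ion and water transporters, against 24.1% of all genes, and the median log2 fold change of each of these lists was -0.10. Within the UMI limit the direction turned, with medians of 0.21 and 0.095. The median was 0.45 for secreted proteins and 0.28 for nutrient transporters and receptors. There 1 choroid plexus marker, 1 secreted protein and 1 nutrient transporter or receptor were called higher, in lists that share members, beside 43 of all 9765 genes. *Kcnj13* and *Clic6* of the gate are among the 15, and *Kl*, *Sostdc1*, *Folr1* and *Prlr* are in the lists of secreted proteins and of nutrient transporters and receptors. Over the 129 genes of these 7 lists, gate genes included, 33 had an unadjusted *p* under 0.05, 25 of them lower in aged mice. That tally holds the 6 gate genes, 3 of them with an unadjusted *p* under 0.05. Their values were used by the gate, so the tally is a description. DESeq2 called 1 of the 129, the peptide transporter *Slc15a2*. *Ttr* had a log2 fold change of -0.04 (edgeR adjusted *p* = 0.921), the water channel *Aqp1* of -0.17, the bicarbonate transporter *Slc4a5* of -0.11, the sodium, potassium and chloride carrier *Slc12a2* of -0.09 and the lineage factor *Otx2* of -0.06. *Kl* stood at 871, 855, 755 and 703 CPM (-0.24) and *Clic6*, a chloride channel protein, at 541, 557, 404 and 433 CPM (-0.39). Aged mice were below adult mice in both, which is a description with no test, since *Kl* and *Clic6* were part of the gate. Of 50 nuclear genes of oxidative phosphorylation, 13 mitochondrially encoded genes, 16 p53 and cell cycle inhibitor genes and 26 redox genes, 0 were called by edgeR or DESeq2 over the whole gate, and 18 of all 105 had an unadjusted *p* under 0.05. Of the 13 mitochondrially encoded genes, edgeR called 3 higher in aged mice after thinning and 2 within the UMI limit. Over all genes, 100 of 11131 were called higher after thinning and 43 of 9765 within the UMI limit. The iron carrier *Trf* stood at 384, 319, 470 and 498 CPM (0.46, edgeR adjusted *p* = 0.0704). A gene that missed the threshold is not shown to be equal at both ages.

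**Figure D4:**
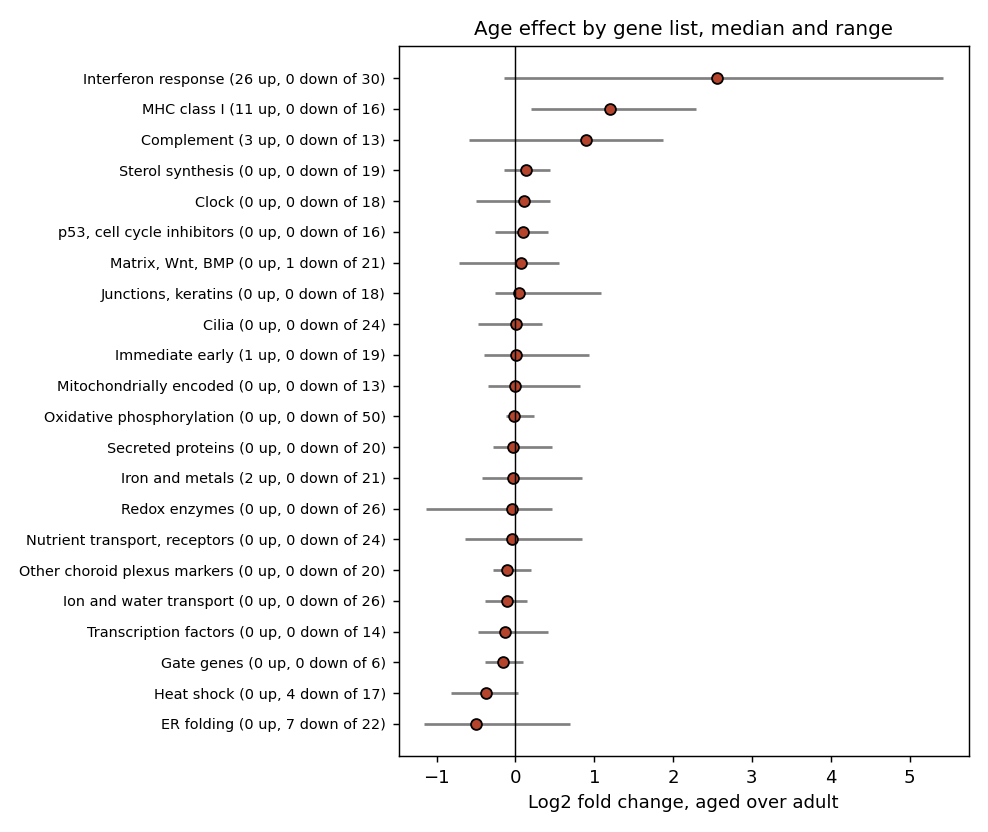
Log2 fold change of aged over adult mice in the gated barcodes for each gene list on the axis: the point is the median and the line the range over the members tested, and the counts beside each name are the members called higher and lower. Interferon response, MHC class I and complement lie to the right at 2.55, 1.19 and 0.89, and endoplasmic reticulum and heat shock chaperones to the left at -0.50 and -0.37, with the other lists drawn between them.

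Markers of other cell types were looked at beside the age calls. Of 8 ependymal markers, 0 were called by edgeR (median log2 fold change 0.19) and 4 had an unadjusted *p* under 0.05. DESeq2 called 1 of them higher in aged mice. In 4 of the 8 both aged mice were above both adult mice, against 24.5% of all genes. In the stricter set 1 of the 8 was called lower (median -0.14). Microglial markers summed to 396, 469, 312 and 424 CPM and endothelial markers to 281, 552, 331 and 589 CPM, with the ages overlapping, and 2 of 8 microglial markers were called lower in aged mice, against 0.25% of all genes (*Csf1r* -0.74 and *P2ry12* -0.62), though not in the stricter set (-0.32 and -0.20). T cell markers summed to 3.3, 0.6, 4.2 and 4.0 CPM, and 0 of 5 were called by edgeR or DESeq2 or had an unadjusted *p* under 0.05 in edgeR. In the stricter set, the microglial sum was at 83, 86, 102 and 109 CPM, and 2 of 8 microglial markers were called higher in aged mice, *C1qa* (0.65) and the protease *Ctss* (0.89). Microglial and T cell markers were among those by which barcodes were left out. Their values there, and the loss of the *Csf1r* and *P2ry12* calls, are therefore a description. The T cell sum was at 0.128, 0.655, 3.17 and 4.23 CPM there, with *Trbc2* at 0.0257, 0.0364, 1.16 and 0.922 CPM. T cell markers were close to 0 in adult mice there and passed the filter on low counts through the aged mice, so no count of calls is given for them. The part of microglia, T cells and ependymal cells in the other age calls was not tested. In that set 276 genes were called higher (1.89%) and 107 lower (0.731%), and 173 of the 199 original calls tested there were called again in the same direction. There 26 of 29 interferon, 13 of 16 MHC class I, 6 endoplasmic reticulum and 5 heat shock genes were called. *Isg15* then stood at 0.334, 1.42, 94.7 and 157 CPM. In barcodes within the limit of 22005 UMIs (226, 137, 119 and 195), 43 genes were higher and 6 lower of 9765 tested, 29 of 135 original calls were called again, and 124 kept their sign. There 13 of 27 interferon, 2 of 13 MHC class I, 1 endoplasmic reticulum and 3 heat shock genes were called, and the median log2 fold change of the endoplasmic reticulum list was -0.22. Thinned to 5000 UMIs per barcode, 7 of 21 genes of that list were called lower, with a median of -0.38, beside 21 of all 11131 genes. Without the adult Low fiber mouse 92 genes were called higher and 26 lower.

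The diets were compared with age as a covariate, which leaves 1 residual degree of freedom. On High fiber, 118 genes were higher (0.702%) and 4 lower (0.0238%), the latter being *Prg4*, *Snhg11*, *Cldn11* and *Ccn3*, named after their values were seen. Among the 12 largest rises at a mean of 10 CPM or more were *Pglyrp1* (1.44) and *Ctla2a* (1.37), the highest of them, and 3 genes of the endothelial marker list. *Flt1*, a receptor for vascular endothelial growth factor, stood at 38.5, 96.1, 43.1 and 105 CPM (log2 fold change 1.31 ± 0.06, SE, edgeR adjusted *p* = 0.000188). *Cldn5*, the claudin of brain capillaries, stood at 57.7, 111, 50.9 and 121 CPM (1.09), and *Ly6c1* at 49.7, 104, 57.0 and 134 CPM (1.15). Both High fiber mice were above both Low fiber mice in each. Of 6 endothelial markers 4 were called, with a median log2 fold change of 1.12. All 118 genes were lower in the gated than in the other kept barcodes, as were 77.1% of all tested genes, and without barcodes rich in other cell type markers their level was at a median of 0.197 times that in the whole gate (0.906 over all genes).

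Without those barcodes 1 gene was called higher (0.00683%) and 1 lower (0.00683%) on High fiber, the former being 1 of the 110 genes still tested and the latter the stress factor *Atf3* (-1.89), named after its value was seen. *Flt1* stood there at 7.42, 8.88, 6.39 and 12.9 CPM, against 1542, 1723, 1339 and 1576 CPM in the other kept barcodes, and 0 of the 6 endothelial markers were called by edgeR (median 0.35), 3 having an unadjusted *p* under 0.05. These markers were among those by which barcodes were left out, so their loss of a call there is a description. The call that remained was *Oasl2* (0.93, edgeR adjusted *p* = 0.0355), an interferon-induced gene with 0.180, 0.619, 23.4 and 44.2 CPM there, where age groups were farther apart than diets. Without the Scrublet calls 9 genes were higher (0.0545%) and 0 lower, 927 having an unadjusted *p* under 0.05. With no term for age 0 were called in edgeR, 573 having an unadjusted *p* under 0.05, and 67 in DESeq2 with the term. Of 119 choroid plexus markers, transporters, secreted proteins and chaperones, 0 were called for diet by edgeR or DESeq2, and 24 had an unadjusted *p* under 0.05.

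**Figure D5:**
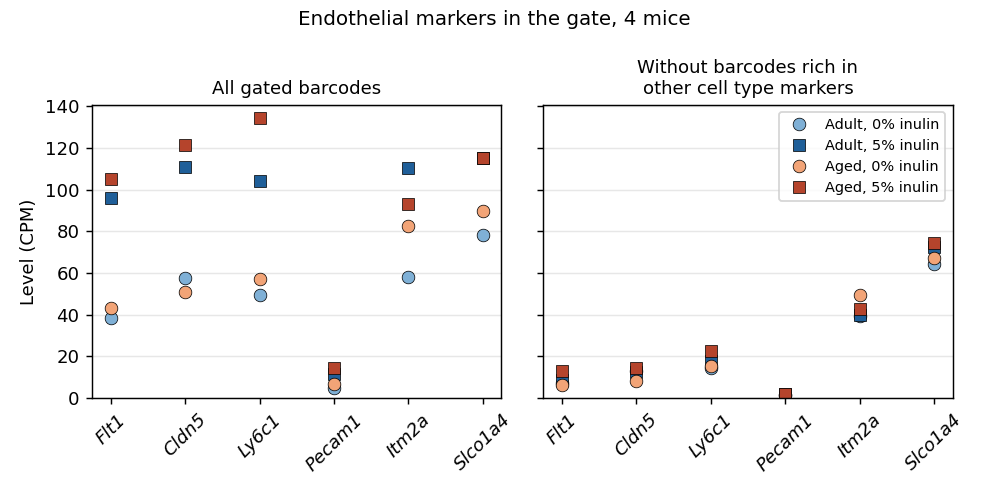
Level in CPM of 6 endothelial markers in each mouse, in all gated barcodes (left) and without barcodes rich in other cell type markers (right), with 1 point per mouse. On the left both High fiber mice are above both Low fiber mice in every gene, and on the right, where barcodes were left out partly by these same genes, so that lower levels are fixed by the choice, both High fiber mice are above both Low fiber mice in 4 of the 6.

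Interferon genes called for diet were *Rsad2*, *Isg15*, *Oasl2*, *Ly6e* and *Gbp2*, 5 of 30 against 0.702%. *Isg15* had a log2 fold change of 0.83 (edgeR adjusted *p* = 0.0156), with the High fiber mouse above the Low fiber mouse at each age and the diets overlapping across ages. It was not called by DESeq2 (adjusted *p* = 0.197), in edgeR's robust fit (0.129), with a gate sum of at least 30 UMIs (0.0828), without the Scrublet calls (0.099), in the stricter set (0.096) or after thinning, where the log2 fold change was 0.20. *Rsad2* was not called in the stricter set (0.29), within the UMI limit, with gate genes at 0.1% or more of UMIs or with a gate sum of at least 30. *Oasl2* was not called after thinning (0.35), with a gate sum of at least 10 or without Scrublet calls, and *Ly6e* not in the stricter set (0.34), with gate genes at 0.1% or more of UMIs or with a gate sum of at least 30. In barcodes within the UMI limit 1 interferon gene was called higher and 8 lower on High fiber of 27 tested, beside 161 higher and 18 lower of all 9765 genes, with a median log2 fold change of -0.42. *Isg15* stood there at 1.81, 4.78, 143 and 60.03 CPM, with a log2 fold change of -1.001 (edgeR adjusted *p* = 1.5e-05). There the aged High fiber mouse was below the aged Low fiber mouse, so the direction in the aged mice differed between deep and shallow barcodes. In that fit within the UMI limit, markers of other cell types were called higher on High fiber. They were 7 of 8 microglial, 6 of 6 endothelial and 5 of 8 ependymal markers (median log2 fold changes 1.32, 1.45 and 1.68). The part of these cells in the interferon values was not tested.

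Whether the age effect differed from that in the other 28382 kept barcodes was tested within mice, with the mouse as a block. Of 21383 genes, 123 had a higher (0.575%) and 82 a lower (0.383%) log2 change in the epithelium. The 123 include 3 of the 6 gate genes, whose values parted the 2 sets, so for them this is a description. They also include 4 of the 20 choroid plexus markers outside the gate. Of these, *Ttr* changed by -0.04 in the gated and -0.73 in the other barcodes, and *Enpp2* by -0.24 and -1.08. The part of free RNA in these values was not tested. The median difference was -0.04 over all genes, and 0.11 without TMM factors, when the lower calls came to 24 and the share of calls that were higher moved from 60 to 84.2%. Among interferon response genes 23 had the higher change. *Isg15* changed by 5.42 in the gated and 1.26 in the other barcodes (difference 4.10, edgeR adjusted *p* = 0.0037), and *Ifit1* by 5.33 and 1.18 (4.09). The level of *Isg15* in the other barcodes was 54.5, 76.8, 152 and 145 CPM, well above the adult epithelium and close to the aged. Of the endoplasmic reticulum genes 6 had the lower change, with *Hspa5* at -0.91 and -0.30 and *Manf* at -1.14 and -0.19, although *Hspa5* was not called without TMM factors. In the other barcodes 8 of 16 MHC class I genes were higher and 3 of 17 heat shock genes lower in aged mice. Over all 21359 genes tested there, 593 were higher and 362 lower. The median log2 fold change was 0.71 for MHC class I and -0.46 for heat shock, beside 1.19 and -0.37 in the epithelium. A difference was called by edgeR for 1 of the 16, higher in the epithelium, and for 0 of the 17, with 8 and 4 at an unadjusted *p* under 0.05. The other barcodes are a mixture whose makeup can move with age.

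Ependymal cells line the ventricles and share their origin with the choroid epithelium. As a nearer comparison, 1259 ependymal-like barcodes (298, 265, 316 and 380) were taken, outside the gate, with at least 15 UMIs summed over *Ccdc153*, *Tmem212*, *Fam183b*, *Dynlrb2*, *1700012B09Rik* and *Mia*. In them 28 interferon response and 15 MHC class I genes were higher and 13 heat shock genes lower in aged mice, against 1.4% and 0.571% of all genes called higher and lower. Of 21 endoplasmic reticulum chaperones tested there, 2 were lower and 0 higher, with a median log2 fold change of -0.17, beside -0.50 in the epithelium. In the test of the difference, given below, 0 of 22 of these chaperones were called by edgeR, and 14 had an unadjusted *p* under 0.05. *Isg15* changed by 5.39 and *Ifit1* by 4.45 on the log2 scale, beside 5.42 and 5.33 in the epithelium, and *Isg15* stood at 15.8, 10.1, 609.5 and 462 CPM. Of 18022 genes, 2 had a higher (0.0111%) and 7 a lower (0.0388%) log2 change in the epithelium, and 1480 had an unadjusted *p* under 0.05. The lower were *Ifi27* (difference -1.89), *H2-T23* (-1.78), *Apoc1* (-1.42), *Bst2* (-1.34), *B2m* (-1.25), *H2-K1* (-1.20) and *Fbxo2* (-1.16), so that 5 interferon and MHC class I genes rose less in the epithelium than in the ependymal-like barcodes. The higher were the small heat shock gene *Hspb1* (1.35), which changed by -0.70 in the epithelium and -2.03 in the ependymal-like barcodes, and the cyclin *Ccnd2* (0.98). A gene that was not called here is not shown to change alike in both.

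Choroid plexuses of the hindbrain and forebrain ventricles differ in Hox and forebrain patterning genes, which were used to look for both origins. A Hox UMI was found in 12.2, 13.3, 9.47 and 8.21% of gated barcodes and a UMI of the forebrain list in 67.9, 67.1, 77.4 and 75.5%. At 5000 UMIs the Hox shares fell to 2.47, 1.02, 0.930 and 0.954%, against 2.29, 2.17, 1.89 and 1.78% of the other kept barcodes, which are a mixture of cell types. The forebrain shares were then 25.4, 28.5, 28.8 and 32.3%, against 20.5, 21.4, 16.6 and 17.05% of the others. Among barcodes over 20000 UMIs, those with at least 2 Hox UMIs (61, 43, 20 and 33) had a forebrain list sum of 28.3, 24.5, 28.6 and 32.8 CPM, against 74.7, 74.99, 93.7 and 96.7 CPM in the others. The interferon list stood at 1301, 1565, 5417 and 10474 CPM in them and at 1399, 1605, 4889 and 6310 CPM in the others. The aged mice were above the adult mice in both.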

How the data were processed

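Single-cell 3′ libraries were measured in 4 mice. The authors demultiplexed and counted reads with Cell Ranger (3.1.0 and the GRCm38 build per the submitters' processing notes), and the counts they deposited give UMIs for each gene and barcode as whole numbers, neither normalized nor filtered on cells as in the study's methods. The members and gene lists were chosen with earlier results of these data known, and the set without barcodes rich in other markers was added after the data were seen. Age and diet came from the sample labels, and sex from the study's methods.

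The limit on mitochondrial UMIs was 3 median absolute deviations (constant 1.4826) above the median. Scrublet (scanpy 1.11.5, rate of 0.08 expected, seed 0) scored doublets in each mouse, and they were kept. Gated UMIs were summed per mouse, filtered (filterByExpr), scaled (TMM) and tested with edgeR 4.0.16 quasi-likelihood fits with Benjamini-Hochberg adjustment, with 2 residual degrees of freedom for age and 1 for diet, for which the gene-wise spread is pooled across genes. The *p*-values measure the spread between these mice. Named genes were the 12 largest calls per direction at a mean of 10 CPM or more, and up to 6 calls per list. A gene of the interferon list, counted in its totals, is not reported here. Other genes named were list members or are said to be chosen after their values were seen. DESeq2 1.42.0, other gates, scalings and filters, thinning to 5000 UMIs (seed 11) and leaving out mice were alternatives. On simulated sums with 200 genes changed 2-fold, edgeR recovered 95% for age with 18 false calls of 16558 genes, 94.5% for diet with 14 of 16533, and 86% for the difference from other barcodes with 14 of 16558. With no change it called 0 of 16552. These rates were not split by the genes' counts. Whether they hold for genes with few counts, or for the spread between these mice, was not tested. Fits ran in R 4.3.3, and sums and exact tests in Python with scipy 1.17.1 and pandas 2.3.3. All 570 reported genes were found in GENCODE vM21. Promoters came from RefSeq.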

Additional observations from a re-analysis of the deposited data

Results flagged for a closer look

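Differences of the age effect, tested with the mouse as a block in edgeR, set these genes apart. Against the other kept barcodes, the log2 change in the epithelium was larger by 5.56 for *Apol9a*, 5.51 for *Apol9b*, 4.10 for *Isg15*, 4.09 for *Ifit1*, 3.82 for *Ifi44*, 3.46 for *Gm4951*, 3.45 for *Usp18*, 3.27 for *Irf7*, 3.07 for *Iigp1*, 3.06 for *Oasl2*, 2.93 for *Ddx60* and 2.83 for *Gbp3*. It was lower for *Igkc* (-5.40), an immunoglobulin chain whose rise was in the other barcodes, and for *Scx* (-2.44), *Fmod* (-1.71), *Sdf2l1* (-1.38), *Apoc1* (-1.38), *Bmp4* (-1.30), *Lgals3* (-1.26), *Caly* (-1.19), *Capg* (-1.17), *Cxcl16* (-1.07), *Crlf2* (-1.06) and *Creld2* (-1.05). Values for *Apol9a* and *Apol9b* rest on 3 and 2 and on 11 and 6 UMIs in the adult epithelium, depend on the prior count and give no size of fold. Without TMM factors *Gm4951*, *Fmod*, *Apoc1* and *Caly* were not called (edgeR adjusted *p* = 0.0542 to 0.131).

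Against ependymal-like barcodes the differences were 1.35 for *Hspb1*, 0.98 for *Ccnd2*, -1.89 for *Ifi27*, -1.78 for *H2-T23*, -1.42 for *Apoc1*, -1.34 for *Bst2*, -1.25 for *B2m*, -1.20 for *H2-K1* and -1.16 for *Fbxo2*.

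Barcodes that met the gate but lay above the mitochondrial limit (152, 117, 57 and 81) were not used in any comparison. Their median mitochondrial share was 30.4, 28.6, 31.7 and 38.3%. The interferon list summed to 777 and 976 CPM in those of the adult mice and to 3464 and 2693 CPM in those of the aged mice, Low fiber first.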

How the results depend on the processing

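Of 169 genes called higher and 42 lower in aged mice, the counts were 43 and 6 with UMIs within the upper limit, 278 higher with a gate sum of at least 10 and 112 and 23 with one of at least 30, 533 and 207 with no filter on low counts, 100 and 21 with barcodes thinned to 5000 UMIs, and 276 and 107 without barcodes rich in other markers. Leaving out 1 mouse gave 92 to 175 higher and 26 to 37 lower, and an adjusted *p* alone gave 91 lower. Of 118 higher and 4 lower on High fiber, DESeq2 gave 65 and 2, a gate sum of at least 30 gave 62 and 1, no covariate 0 and 0, no filter 294 and 72, thinning 69 higher, leaving out Scrublet calls 9 and 0, and leaving out marker-rich barcodes 1 and 1. The lower calls came to 18 within the UMI limit, 7 at 0.1% or more of gate UMIs, 27 with a gate sum of at least 10, 2 without TMM factors and 7 on adjusted *p* alone. For the difference from other barcodes, 123 and 82, no TMM factors gave 24 lower, leaving out 1 mouse 116 to 196 and 93 to 247, and the stricter set 255 and 225.

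Mice with the same replicate number share a diet and nothing else in the labels. Their deviations correlated at 0.228 over 16805 genes, with too few pairs to call them paired, and the replicate block, which is here the diet, gave 279 higher and 72 lower, and changed none of 43 named age calls. Leaving out a mouse from the diet fit with age leaves no residual degrees of freedom and was not run.

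Within the UMI limit the difference in the share of library UMIs was -0.153 percentage points in place of -9.78, and the share of barcodes with a Hox UMI, 10.8% over the mice, was 1.34% after thinning. Signs turned for age within the UMI limit in *Apoc1* (0.35), *Junb* (-0.23), *Csf1r* (0.028) and *P2ry12* (0.38), and for diet in *Klf2* (-0.17) without marker-rich barcodes and in *Isg15* (-1.001) and *Oasl2* (-0.32) within the UMI limit. The cause was not tested. Of 43 named age calls, 16 missed the threshold in edgeR's robust fit, and 43 passed in DESeq2 and without TMM factors. Within the UMI limit 16 passed, 19 missed the threshold, 4 turned and the others were not tested.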

Other observations

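Shallow barcodes of the epithelium had a lower median share of *Ttr* than deep ones in each mouse. Within the limit of 22005 UMIs the median *Ttr* share was 16.5, 19.6, 25.3 and 26.5%, against 29.4, 28.4, 29.8 and 28.4% above it. Nuclear genes of oxidative phosphorylation summed to 62231, 54201, 55737 and 54012 CPM in the shallow and 37683, 37642, 36162 and 38443 CPM in the deep barcodes, while mitochondrially encoded genes went the other way (25536, 27904, 26006 and 31753 CPM against 51952, 51651, 56157 and 51818 CPM). These are values of barcodes split by depth, with no test.

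The 407 barcodes that passed the gate but not the mitochondrial limit also had the age order of the chaperones. Endoplasmic reticulum chaperones summed to 6747, 5824, 4331 and 3622 CPM in them, heat shock proteins to 4225, 4201, 3200 and 2835 CPM, and MHC class I to 618, 805, 1289 and 1507 CPM. In the gated barcodes MHC class I summed to 405, 482, 851 and 1026 CPM.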
